A study of Mus musculus with 4 samples.

Results

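Hyaluronan genes were examined in bone marrow mesenchymal stem cells of the mouse, the adherent stromal cells of the marrow. The genes were the 3 hyaluronan synthase genes Has1, Has2 and Has3, the precursor enzyme genes Gfpt1, Gfpt2, Uap1 and Ugdh, the hyaluronidase genes Hyal1 and Hyal2, and the receptor gene Cd44. They were selected on gene name after the large increases of Has2 and Gfpt2 with TGF-b1 on these same arrays were known, so their values are given as a description, with no test. A gene was taken from probe sets that carry its symbol alone. Of the 10 genes, 9 had 1 such probe set each, out of 22180 genes measured in this way. Hyal1 shared its 2 probe sets with another symbol and has no value here. Has2 and Hyal2 each had 1 further probe set shared with another symbol, which was not used. A filter kept the 60% of genes with the highest mean, which are 13308 genes with means of at least 4.51. It kept 8 of the 9 genes, and Has3 did not pass.

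The study had 4 groups of 1 array each. Snail1-KO cells, which lack functional Snail1, were given TGF-b1 for 2 h or left untreated, and Snail1-WT cells, which retain Snail1, were handled in the same way. Snail1 is a zinc finger repressor encoded by Snai1, and TGF-b1 is a cytokine that signals through SMAD proteins. The labels do not state the dose of TGF-b1, the way Snail1 was deleted, the age of the animals or whether each culture was a separate one. With 1 array per group no difference has a replicate check.

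Hyaluronan is an unsulfated chain of alternating glucuronic acid and N-acetylglucosamine that fills the matrix around stromal cells. The synthases sit in the plasma membrane and build the chain from UDP-glucuronic acid and UDP-N-acetylglucosamine. GFPT enzymes open the hexosamine branch at fructose-6-phosphate, UAP1 closes it by forming UDP-N-acetylglucosamine, and UGDH oxidises UDP-glucose to UDP-glucuronic acid. Hyaluronidases cut the chain, and CD44 binds it at the cell surface.

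Values are RMA log2 values, on which a difference of 1 is 2-fold. As a yardstick of error, a noise SD of the difference between 2 arrays was estimated for each gene from how far the responses of Snail1-KO and Snail1-WT cells disagreed over the 500 genes nearest in level. It also holds any true difference of the responses, and whatever both arrays of a genotype share cancels out. Whatever both treated or both untreated arrays share cancels too, so the noise SD does not cover it. It lay between 0.08 for Has2 and Ugdh and 0.22 for Has3.

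The arrays matched their labels for the targeted gene. Snai1 measured 5.34 in TGF-b1-treated and 5.09 in untreated Snail1-KO cells, against 7.63 in treated and 6.69 in untreated Snail1-WT cells. Whether its probes lie in the deleted part is not stated. Of 10 mesenchymal stem cell markers measured, 8 passed the filter, and Lepr and Nt5e did not. Haematopoietic markers passed in 4 of 9 cases, endothelial in 3 of 5, epithelial in 3 of 4, and smooth muscle and pericyte in 4 of 5. Passing the filter says little about level, since its cut of 4.51 lay below the array medians of 4.58 to 4.63. On the untreated Snail1-WT array the median was 10.28 for mesenchymal stem cell markers. It was 3.77 for haematopoietic, 4.64 for endothelial, 4.88 for epithelial and 5.27 for smooth muscle and pericyte markers. The log2 values of the smooth muscle and pericyte markers summed to 30.0 in treated and 29.6 in untreated Snail1-KO cells, and to 29.7 in treated and 28.3 in untreated Snail1-WT cells. For haematopoietic markers these sums were 39.8 and 40.4 in Snail1-KO cells, and 39.6 and 38.9 in Snail1-WT cells. They ran over the 4 arrays from 21.2 to 21.6 for endothelial and from 18.5 to 19.1 for epithelial markers. For mesenchymal stem cell markers the sums were 87.2 in treated and 86.8 in untreated Snail1-KO cells. They were 88.4 in treated and 88.7 in untreated Snail1-WT cells. Over these 10 markers, Snail1-KO minus Snail1-WT had a median of -0.21 with TGF-b1, with 4 above 0. Without TGF-b1 the median was -0.26, with 2 above 0. The medians over all genes kept were -0.002 and -0.0003. The part of such cells in the differences below was not tested, and in RNA from whole cultures fewer cells of a type and less RNA per cell cannot be told apart.

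Has2, the main synthase of mesenchymal cells, was level within the noise with Gfpt2 for the largest response to TGF-b1 in Snail1-KO cells, and alone had the largest of the 9 genes in Snail1-WT cells. It measured 9.67 in treated and 7.08 in untreated Snail1-KO cells. In Snail1-WT cells it measured 10.58 with and 7.97 without TGF-b1. Both treated arrays were thus above both untreated arrays, and within each treatment the Snail1-KO array was the lower of the pair. The response was 2.58 in Snail1-KO cells, a 5.98-fold increase, and 2.61 in Snail1-WT cells, a 6.12-fold increase. In rank these were number 6 and number 4 among the 13308 genes. Each was over 30 times the noise SD of 0.08.

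The level of Has2 in Snail1-KO cells stayed below that of Snail1-WT cells by nearly the same amount with and without the cytokine. Snail1-KO minus Snail1-WT was -0.92 with TGF-b1 and -0.88 without it, so that Snail1-KO cells had 0.53 and 0.54 of the Snail1-WT level. The 2 responses differed by -0.03, less than the 0.12 expected of such a difference from noise alone. In order of level, the arrays ran from treated Snail1-WT through treated Snail1-KO and untreated Snail1-WT to untreated Snail1-KO, and all neighbours in this order were more than 10 noise SD apart. Neither genotype difference reached 2-fold.

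Has1, which encodes another of the synthases, measured 5.82 in treated and 5.18 in untreated Snail1-KO cells. It measured 6.10 in treated and 5.14 in untreated Snail1-WT cells. The untreated arrays of both genotypes were within 0.04 of each other, and both treated arrays were above them. The response was 0.63 in Snail1-KO cells and 0.96 in Snail1-WT cells, against a noise SD of 0.21. The difference between the responses, -0.33, was close to the 0.30 expected from noise.

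Has3, whose product makes hyaluronan in epithelial cells among others, was near the lower end of what the arrays measure. It had 4.21 and 4.20 in treated and untreated Snail1-KO cells, and 4.11 and 4.39 in treated and untreated Snail1-WT cells. Its responses of 0.01 and -0.28 were within 2 noise SD of 0. Of the synthase genes, Has2 thus had the large response and Has1 a smaller one.

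**Figure D1:**
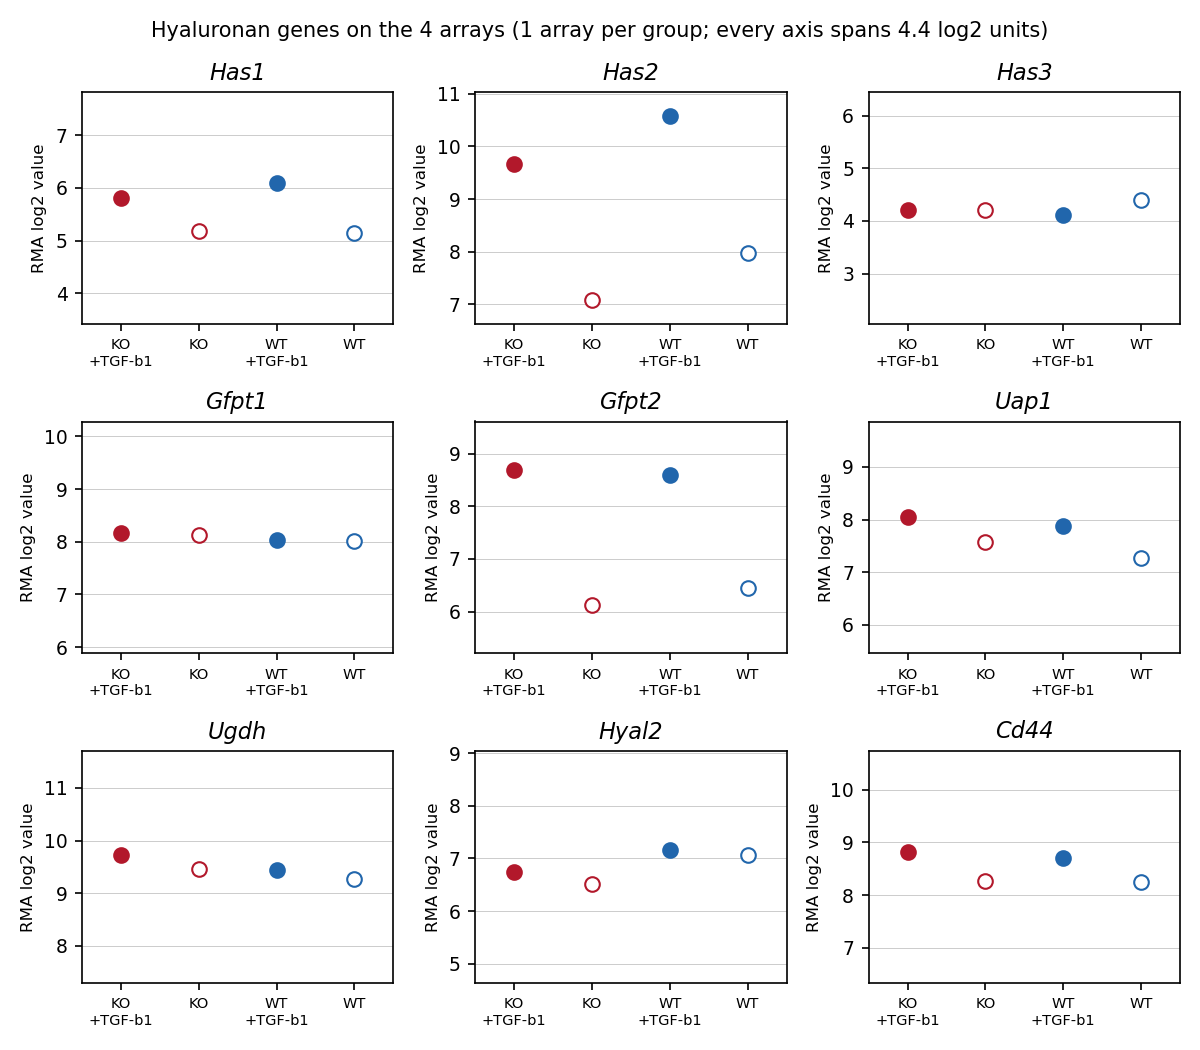
RMA log2 values of the 9 measured hyaluronan genes on the 4 arrays, 1 point per array, filled with TGF-b1 and open without; all vertical axes span the same number of log2 units. Has2 and Gfpt2 separate treated from untreated arrays by more than 2 units in both genotypes, and Gfpt1 is nearly level, between 8.01 and 8.16.

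The glutamine:fructose-6-phosphate amidotransferases GFPT1 and GFPT2 catalyse the same first step of the hexosamine branch, and their genes behaved differently. Gfpt2 measured 8.70 in treated and 6.12 in untreated Snail1-KO cells, and 8.59 in treated and 6.45 in untreated Snail1-WT cells. Gfpt1 measured 8.16 and 8.13 in treated and untreated Snail1-KO cells, and 8.04 and 8.01 in treated and untreated Snail1-WT cells. The 4 arrays of Gfpt1 thus spanned 0.15, while both treated arrays of Gfpt2 exceeded both untreated ones by more than 2.

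The Gfpt2 response was 2.57 in Snail1-KO cells and 2.14 in Snail1-WT cells, or 5.94-fold and 4.41-fold. It ranked number 7 of 13308 genes in each genotype. The corresponding responses of Gfpt1 were 0.03 and 0.03, below its noise SD of 0.11. For Gfpt2 the Snail1-KO response exceeded the Snail1-WT response by 0.43, against 0.18 expected from noise. Snail1-KO minus Snail1-WT was 0.11 with TGF-b1 and -0.32 without it, so the gap between the genotypes was wider in untreated cells.

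The RefSeq promoters of the 2 paralogs are shown because their measured responses lay so far apart. Each is the 250 bases before the annotated start in GRCm38.p6. The Gfpt2 promoter lies at chr11:49793905-49794154 on the plus strand, and the Gfpt1 promoter at chr6:87042596-87042845 on the plus strand. Capitals mark matches, on either strand, to the letters searched, which were a SMAD box CAGACA, a GC-rich SMAD site GGCGCC, an AP-1 site TGANTCA, a Snail E-box CACCTG, a short form of the cyclic AMP response element (CRE) TGACGT and a TATA box TATAAA.
Gfpt2: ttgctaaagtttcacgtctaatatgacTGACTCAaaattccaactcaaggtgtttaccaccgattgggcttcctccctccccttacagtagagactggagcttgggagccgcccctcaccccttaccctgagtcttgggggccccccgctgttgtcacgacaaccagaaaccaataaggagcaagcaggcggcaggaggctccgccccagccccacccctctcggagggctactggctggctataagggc
Gfpt1: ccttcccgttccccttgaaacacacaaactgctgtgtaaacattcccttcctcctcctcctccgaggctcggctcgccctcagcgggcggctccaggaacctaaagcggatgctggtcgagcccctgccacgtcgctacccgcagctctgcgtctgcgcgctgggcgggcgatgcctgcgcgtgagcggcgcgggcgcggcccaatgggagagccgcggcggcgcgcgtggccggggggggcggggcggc

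The Gfpt2 window held 1 AP-1 match, which began 223 bases before the start, and no other match. AP-1 letters were in 6.75% of the 32851 promoter windows of this length. The Gfpt1 window held none of the motifs and had a GC content of 72.0%, against 57.6% for Gfpt2. A match is a description of the letters and not a site of binding.

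Uap1, which forms UDP-N-acetylglucosamine, measured 8.05 in treated and 7.57 in untreated Snail1-KO cells. It measured 7.87 in treated and 7.27 in untreated Snail1-WT cells. The response was 0.48 in Snail1-KO cells and 0.60 in Snail1-WT cells, against a noise SD of 0.11. Ugdh, which supplies the glucuronic acid, measured 9.74 and 9.47 in treated and untreated Snail1-KO cells, and 9.44 and 9.27 in treated and untreated Snail1-WT cells. Its responses were 0.27 and 0.17, against a noise SD of 0.08. For both genes the treated array was the higher one in each genotype, and the steps were well under 2-fold.

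The promoters of Has1 and Uap1 are shown because both genes were at least 1.5-fold higher after TGF-b1 in at least one genotype. They lie at chr17:17855189-17855438 on the minus strand and at chr1:170174965-170175214 on the minus strand of GRCm38.p6, and capitals mark matches to the same motifs.
Has1: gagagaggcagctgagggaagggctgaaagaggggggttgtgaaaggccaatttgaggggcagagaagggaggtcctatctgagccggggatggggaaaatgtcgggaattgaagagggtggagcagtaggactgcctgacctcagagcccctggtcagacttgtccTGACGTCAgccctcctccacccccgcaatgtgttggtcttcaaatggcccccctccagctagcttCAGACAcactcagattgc
Uap1: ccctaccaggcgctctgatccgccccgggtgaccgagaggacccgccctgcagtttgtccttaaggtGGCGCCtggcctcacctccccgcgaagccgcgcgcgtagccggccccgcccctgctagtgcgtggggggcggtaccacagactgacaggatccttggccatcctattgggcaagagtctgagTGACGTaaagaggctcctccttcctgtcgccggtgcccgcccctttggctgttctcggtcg

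In the Has1 window 2 overlapping matches to the short CRE formed the palindrome TGACGTCA, a full CRE, which began 83 bases before the start. The full CRE was searched after these had been seen, and 1.55% of promoter windows held it. A SMAD box, present in 17.1% of windows, began at base 18 before the start. The Uap1 window held a short CRE, which 6.47% of windows had, and a GC-rich SMAD site, which 9.59% had. The windows of Ugdh, Hyal2 and Cd44 held no match. The Snail E-box, found in 17.2% of all windows, and the TATA box, in 12.4%, were in none of the 7 windows of these genes that the table held.

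Hyal2, a hyaluronidase anchored at the cell surface, measured 6.74 in treated and 6.52 in untreated Snail1-KO cells, and 7.15 in treated and 7.06 in untreated Snail1-WT cells. Both Snail1-KO arrays were below both Snail1-WT arrays. Snail1-KO minus Snail1-WT was -0.41 with and -0.54 without TGF-b1, against a noise SD of 0.14. The responses to TGF-b1, 0.22 in Snail1-KO and 0.09 in Snail1-WT cells, were within 2 noise SD of 0.

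Cd44, encoding the main hyaluronan receptor, measured 8.82 in treated and 8.27 in untreated Snail1-KO cells, and 8.70 in treated and 8.25 in untreated Snail1-WT cells. The untreated arrays were within 0.01 of each other. The response was 0.55 in Snail1-KO cells and 0.44 in Snail1-WT cells, which is 1.46-fold and 1.36-fold, against a noise SD of 0.10. The probe set gives 1 value for the whole gene, so the standard and variant isoforms of Cd44 were not separated.

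**Figure D2:**
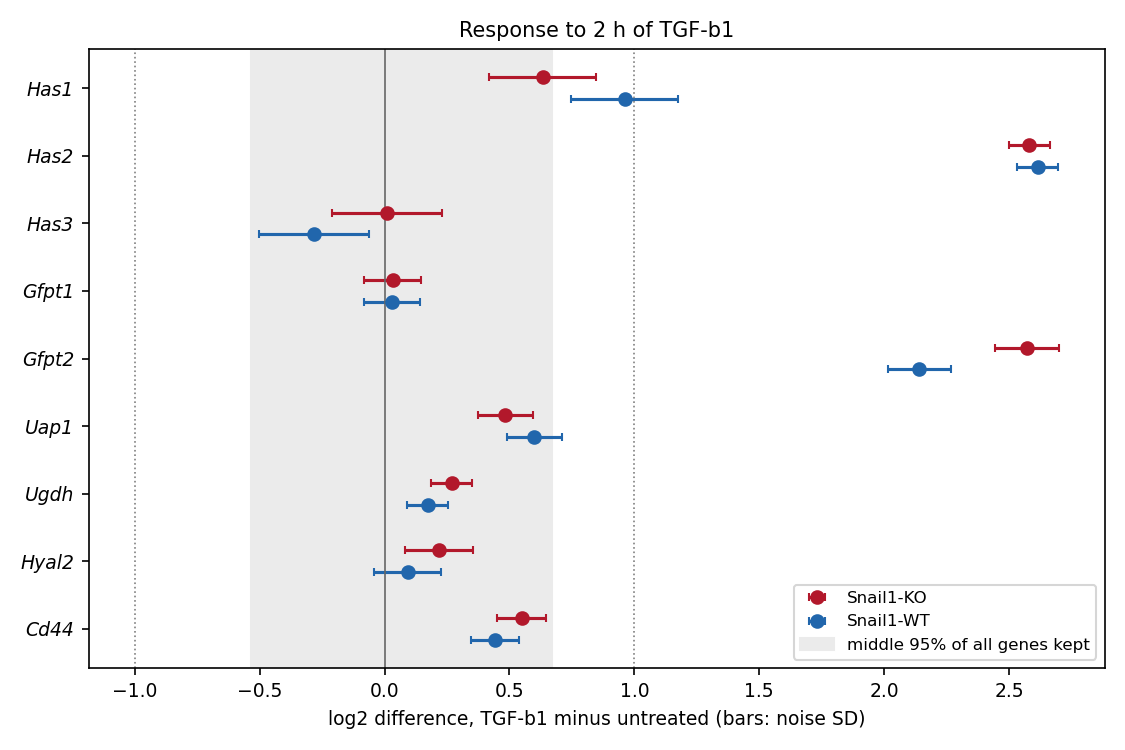
Log2 difference between TGF-b1-treated and untreated cells for each hyaluronan gene, in Snail1-KO (red) and Snail1-WT cells (blue); bars are 1 noise SD on either side, the grey band is the middle 95% of all genes kept, at its widest over both comparisons, and dotted lines mark 2-fold. Has2 and Gfpt2 lie past 2 units in both genotypes, and Has1 lies outside the band in Snail1-WT cells only.

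Counted over all 9 measured genes, 2 were at least 2-fold higher after TGF-b1 in Snail1-KO cells, where 0.999% of all genes kept were, and the same 2 in Snail1-WT cells, where 0.714% were. They are Has2 and Gfpt2. None was 2-fold lower, against 0.308% and 0.271% of all genes. These counts include the values that led to the choice of genes and support nothing further. The median response was 0.48 in Snail1-KO cells and 0.44 in Snail1-WT cells, against medians of -0.02 and -0.03 over all genes kept. A response of at least 2 noise SD upward was measured for the same 6 genes in each genotype, namely Has1, Has2, Gfpt2, Uap1, Ugdh and Cd44. The shares of all genes kept were 11.6% in Snail1-KO and 8.60% in Snail1-WT cells.

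Between genotypes none of the 9 genes was 2-fold apart. In Snail1-KO cells with TGF-b1, 1.07% of all genes passed 2-fold upward and 0.631% downward, and without it 0.827% and 0.744%. At least 2 noise SD lower in Snail1-KO cells were Has2 and Hyal2 with TGF-b1, and Has2, Hyal2 and Gfpt2 without it, where 14.0% and 15.0% of all genes were. Higher by that measure were Ugdh with TGF-b1, at 0.30, and Ugdh and Uap1 without it, at 0.20 and 0.30, where 17.5% and 14.7% of all genes were. Any other way in which the Snail1-KO and Snail1-WT cultures differ would recur in both pairs of arrays, so it cannot be told apart from the loss of Snail1. The genotype differences of Has1, Has3, Gfpt1 and Cd44 were within 2 noise SD of 0 in both pairs of arrays.

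**Figure D3:**
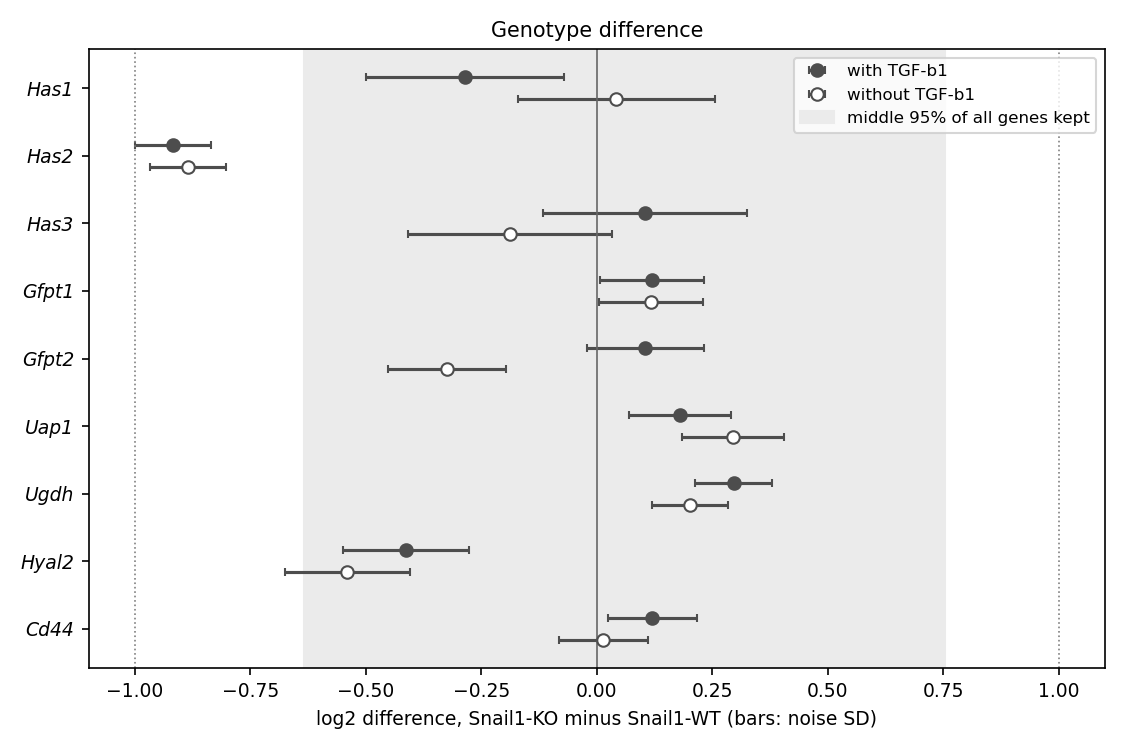
Log2 difference between Snail1-KO and Snail1-WT cells for each hyaluronan gene with TGF-b1 (filled) and without it (open); bars are 1 noise SD on either side, the grey band is the middle 95% of all genes kept, at its widest over both comparisons, and dotted lines mark 2-fold. Has2 is the only one of the 9 genes outside the band, at -0.92 and -0.88.

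Has2 and Gfpt2 were set beside all 68 genes that were at least 2-fold higher after TGF-b1 in both genotypes. Over these 68 genes the response in Snail1-KO cells exceeded that in Snail1-WT cells by a median of 0.23, with 53 above 0. Has2, at -0.03, was number 14 from the lowest, and Gfpt2, at 0.43, number 51. In the treated cells, Snail1-KO minus Snail1-WT had a median of -0.04 over the 68 genes, with quartiles of -0.28 and 0.36. Has2, at -0.92, was number 3 from the lowest and Gfpt2, at 0.11, number 40. In the untreated cells the median was -0.22, and Has2, at -0.88, was number 7 from the lowest. These rankings share their arrays with the responses and are descriptions.

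**Figure D4:**
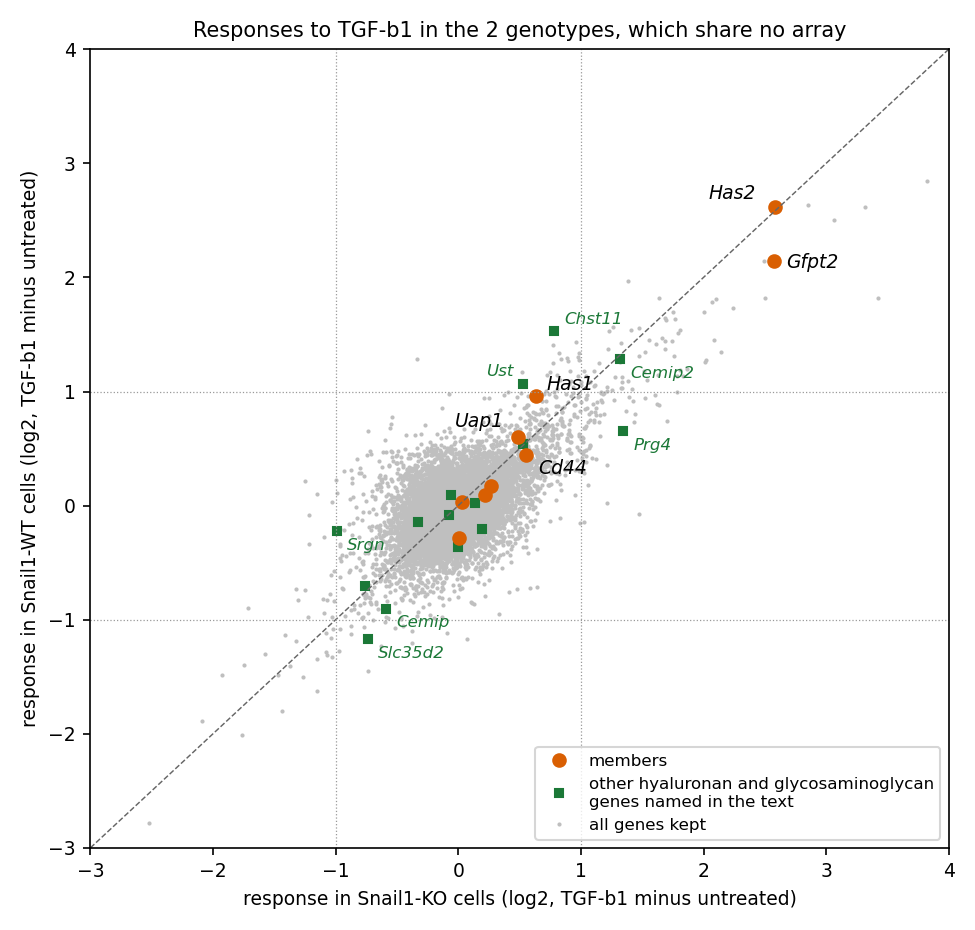
Response to TGF-b1 of each gene in Snail1-KO cells (horizontal) against Snail1-WT cells (vertical), both as log2 differences; orange circles are the hyaluronan genes, green squares other named genes of the same pathways, grey points all genes kept and the dashed line marks equal responses. Has2 lies on the line at 2.58 and 2.61, and Gfpt2 lies below it at 2.57 and 2.14.

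The genes most like Has2, Gfpt2 and Cd44 over the 4 arrays were found by the distance between their log2 values after each gene's own mean was removed. Among 12419 genes, the nearest to Has2 were the zinc finger factor gene Egr2 at 0.30 log2 units, the EGF receptor ligand gene Hbegf at 0.42, Tnfrsf11b, encoding osteoprotegerin, at 0.65, the cytokine gene Il6 at 0.74, which was below 4.51 in untreated Snail1-KO cells, and Pmepa1, encoding a SMAD-dampening membrane protein, at 0.76. Gfpt2 followed as number 6, at 0.86. Egr2 measured 8.38 in treated and 5.53 in untreated Snail1-KO cells, and 8.94 in treated and 6.31 in untreated Snail1-WT cells, which is the order of arrays seen for Has2. The nearest to Gfpt2 were Pmepa1 at 0.45, the phosphate transporter gene Slc20a1 at 0.51, Tnfrsf11b at 0.53, Hbegf at 0.54 and the transcription factor gene Nfatc2 at 0.55. Has2 was number 22 from Gfpt2. For Cd44, whose values spread less, Nfil3 and Ephb3 were at 0.04, and Rhbdf1, Pdzd8 and Map7d1 at 0.06.

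The other genes of hyaluronan metabolism came from fixed lists, described here by all measured members. In the hexosamine branch and its turnover, 0 of 9 measured genes were 2-fold apart in any of the 4 comparisons. In each direction of these comparisons only 0.271% to 1.07% of all genes kept were, so this count says little about the list. The median response of this list was 0.02 in Snail1-KO and 0.01 in Snail1-WT cells. Pgm3, whose product isomerises N-acetylglucosamine phosphate between the steps of GFPT and UAP1, measured 7.62 in treated and 7.49 in untreated Snail1-KO cells, and 6.98 in treated and 6.96 in untreated Snail1-WT cells. It was higher in Snail1-KO cells by 0.64 with and 0.53 without TGF-b1, and its responses were 0.13 and 0.02. Gnpnat1, the acetyltransferase between the steps of GFPT and PGM3, had responses of -0.37 in Snail1-KO and -0.58 in Snail1-WT cells. It was named after its values were seen, as the member of this list with the lowest response in each genotype. Gnpda2 and Renbp, with genotype differences of up to -0.95 and -0.64, did not pass the filter, so these sizes are uncertain.

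On the side of glucose entry and the glucuronate branch, 10 genes were measured, with median responses of 0.05 in Snail1-KO and 0.12 in Snail1-WT cells. Slc35d2, a transporter of nucleotide sugars into the Golgi, measured 5.01 in treated and 5.75 in untreated Snail1-KO cells, and 3.97 in treated and 5.14 in untreated Snail1-WT cells. Its responses were -0.74 and -1.17, and it was the only gene of this list 2-fold lower in Snail1-WT cells, as 0.271% of all genes kept were. It was higher in treated Snail1-KO than in treated Snail1-WT cells by 1.04, a comparison in which 1.07% of all genes were 2-fold higher. The treated Snail1-WT array was below 4.51, so both sizes are uncertain. Hk2, Slc2a1 and Ugp2 were named after their values were seen. The hexokinase gene Hk2 had responses of 0.92 in Snail1-KO and 0.96 in Snail1-WT cells, and the glucose transporter gene Slc2a1 0.66 and 0.40. Ugp2, which makes the UDP-glucose that UGDH uses, had -0.16 and -0.18.

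Among 9 other measured genes of hyaluronan breakdown, 1 was at least 2-fold higher after TGF-b1 in both genotypes, as were 0.999% of all genes kept in Snail1-KO and 0.714% in Snail1-WT cells. This was Cemip2, also called Tmem2, which encodes a membrane protein described as a cell surface hyaluronidase. Cemip2 measured 8.50 in treated and 7.18 in untreated Snail1-KO cells, and 8.52 in treated and 7.24 in untreated Snail1-WT cells. Its responses of 1.32 and 1.28 were nearly equal and its genotype differences, -0.02 and -0.06, were within a noise SD of 0.11. Cemip, a paralog required for hyaluronan depolymerisation in human skin fibroblasts, went the other way. It measured 6.87 in treated and 7.46 in untreated Snail1-KO cells, and 8.08 in treated and 8.98 in untreated Snail1-WT cells. Snail1-KO minus Snail1-WT was -1.21 with and -1.52 without TGF-b1, comparisons in which 0.631% and 0.744% of all genes were 2-fold lower. Its responses were -0.59 and -0.90. Hexa, encoding a lysosomal hexosaminidase subunit, was higher in Snail1-KO cells by 0.60 and 0.67. It too was named after its values were seen. Of these 9 genes, 5 passed the filter, and Spam1, Hyal4, Hyal5 and Hyal6 did not.

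No other gene listed as a hyaluronan receptor was 2-fold apart in any comparison, with 8 measured. At most 1.07% of all genes kept were so in either direction of a comparison. The median responses of the 8 genes were -0.06 in Snail1-KO and -0.11 in Snail1-WT cells. Tlr4, an innate immune receptor reported to respond to hyaluronan fragments, had responses of -0.76 and -0.70 and was higher in Snail1-KO cells by 0.58 with and 0.64 without TGF-b1. Tlr2 was higher in Snail1-KO cells by 0.52 and 0.71, and Ptprz1 differed by -0.17 and -0.57. Of 20 measured genes listed as hyaluronan binders, Prg4, encoding the lubricant lubricin, was the only one past 2-fold. It was so after TGF-b1 in Snail1-KO cells, as were 0.999% of all genes kept, and between treated cells of the genotypes, as were 1.07%. Prg4 measured 6.05 in treated and 4.71 in untreated Snail1-KO cells, and 4.64 in treated and 3.99 in untreated Snail1-WT cells. Its response was 1.35 in Snail1-KO and 0.65 in Snail1-WT cells. It was higher in Snail1-KO cells by 1.41 with and 0.71 without TGF-b1. Untreated Snail1-WT cells were below 4.51, so the values of 0.65 and 0.71, which use that array, are uncertain in size. Ptx3 and Tnfaip6, which crosslink hyaluronan in the cumulus matrix of the mouse, were named after their values were seen. Ptx3 had responses of -0.71 and -0.75 and genotype differences of -0.84 with and -0.88 without TGF-b1, and Tnfaip6 had responses of -0.34 and -0.26. Versican (Vcan), the large hyaluronan-binding proteoglycan, was also added, with responses of 0.25 and 0.18.

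Among 11 measured CD44 partners none was 2-fold apart, where at most 1.07% of all genes kept were in either direction of a comparison. Ezr, encoding the membrane-to-actin linker ezrin, was higher in Snail1-KO cells by 0.87 with and 0.86 without TGF-b1, and its responses were -0.07 and -0.08. Iqgap1, a cytoskeletal scaffold gene, had responses of 0.52 and 0.54. Srgn did not pass the filter.

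**Figure D5:**
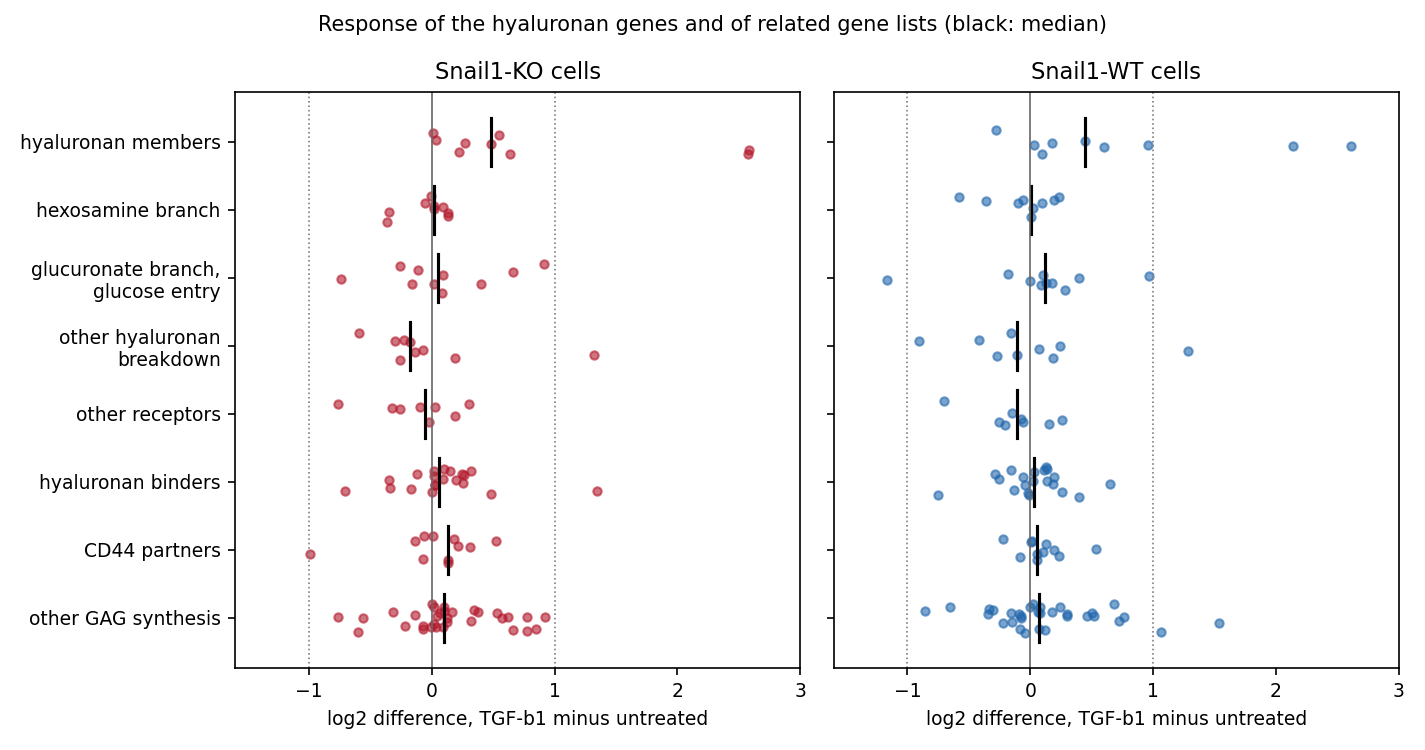
Log2 difference between TGF-b1-treated and untreated cells for every measured gene of each list in Snail1-KO (left) and Snail1-WT cells (right), 1 point per gene, with the list's median as a black bar and 2-fold as dotted lines; GAG stands for glycosaminoglycan. The hyaluronan genes, chosen with these values known, have medians of 0.48 and 0.44, and the medians of the other lists lie between -0.18 and 0.13 in Snail1-KO and between -0.11 and 0.12 in Snail1-WT cells.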

How the data were processed

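Total RNA was biotin-labelled with a WT PLUS kit and hybridised to 4 arrays, per the labels' protocols. The authors deposited log2 values for 41345 probe sets, which the submitters' processing notes say were made by RMA with R 3.1.1. RMA subtracts background and gives all arrays 1 distribution, so a shift shared by most genes is lost. The values lay between 0.737 and 13.3, with array medians of 4.58 to 4.63. No build is named by the labels. Precision is limited by the number of arrays.

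Groups came from the sample titles. Of the probe sets, 23521 had 1 gene symbol in the platform annotation, 1814 had several and 16010 were not named here. By Entrez identifier 23328 matched RefSeq genes of GRCm38.p6, and 0 had another symbol there. A gene with several probe sets was represented by the one with the highest mean. Differences of log2 values were taken between arrays, and no test was made. The noise SD is a scaled median absolute deviation of the difference of the responses over the 500 kept genes nearest in level, divided by the square root of 2. For Has3, which failed the filter, these are the lowest genes kept. The step was tested on simulated data. The 10 genes, the other lists and the settings were chosen with earlier results of these data known. Named genes were the 10, and from each list those at least 2-fold apart in any comparison, or else the 3 with the largest difference. The 5 genes nearest in pattern to Has2, Gfpt2 and Cd44 left out predicted gene models, clone-named transcripts and olfactory receptors. Ccn2, Skil, Smad7 and Pmepa1 were listed with Snai1 as a check of the TGF-b1 response, and with Ccn2 leading at 3.82 in Snail1-KO and 2.84 in Snail1-WT cells 4 of these 5 were at least 2-fold higher in each genotype. A list for the Has2 antisense transcript had no probe set of its own. Promoters were matched by symbol for 7 of 9 genes, all but Has2 and Has3.

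Alternatives were median centring, cyclic loess, the mean of probe sets, a 1.5-fold threshold and other filters. Cyclic loess came from limma 3.58.1 in R 4.3.3, and all else from Python 3.11.15 (matplotlib 3.10.9, pandas 2.3.3, numpy 2.4.6).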

Additional observations from a re-analysis of the deposited data

Results flagged for a closer look

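The 9 measured hyaluronan genes and the list genes named by the rule on named genes were screened. In each case below a difference had opposite signs in both conditions or both genotypes. With 1 array per group this was not tested. The value given is the response in Snail1-KO cells minus the response in Snail1-WT cells.

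Has1 was lower in Snail1-KO cells with TGF-b1 (-0.29) and close to equal without it (0.04), a difference of -0.33. Gfpt2 was higher in Snail1-KO cells with TGF-b1 (0.11) and lower without it (-0.32), a difference of 0.43. For Has3, below the filter on low values, the responses were 0.01 in Snail1-KO and -0.28 in Snail1-WT cells and the genotype differences 0.10 with and -0.19 without TGF-b1, a difference of 0.29.

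Among the other listed genes, the responses of Gnpda2 (-0.06 in Snail1-KO and 0.10 in Snail1-WT cells) differed by -0.15. Gnpda2 was below the filter on low values, and both responses were within its noise SD of 0.22. The responses of the receptor-type phosphatase gene Ptprz1 (0.19 and -0.21) differed by 0.40. The genotype difference changed sign between treated and untreated cells for Chst11 (-0.41 and 0.35, a difference of -0.76), Ust (-0.29 and 0.25, a difference of -0.53), Skil (0.55 and -0.14, a difference of 0.70) and Pmepa1 (0.05 and -0.51, a difference of 0.56). Listed genes outside that rule were not screened, and some changed sign by as much. The responses were 0.48 in Snail1-KO and -0.15 in Snail1-WT cells for Ncan, -0.35 and 0.23 for Amdhd2, and -0.26 and 0.11 for Uxs1. Each Ncan response used an array below 4.51, so its sizes are uncertain.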

How the results depend on the processing

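Over 45 values of the 9 genes, the 4 differences and the difference of the responses of each, median centring moved none by more than 0.05 and cyclic loess none by more than 0.07, each within its noise SD. The mean of probe sets changed none, since each gene had 1 that carries its symbol alone. Signs changed only for values near 0: the difference of the Has2 responses was 0.01 with centring, the Snail1-WT response of Gfpt1 was -0.005 with centring, and the difference of its responses was -0.03 with cyclic loess. With a 1.5-fold threshold 3 genes were higher after TGF-b1 in Snail1-KO cells (Has1, Has2 and Gfpt2, with 3.31% of all genes) and 4 in Snail1-WT cells (these and Uap1, with 2.48% of all genes), and 1 was lower in Snail1-KO cells with (3% of all genes) and 1 without TGF-b1 (3.13%), Has2 both times. The other counts, the shares of all genes under 2 other filters and both scalings, and the 9 noise SDs, with 200 nearest genes or, added after the data were seen, with no filter, moved by at most 1.5 times. Low signal limits Has3, which failed the filter. Has1 passed it but had nearly as large a noise SD, 0.21 against 0.22. No paired analysis was possible because each group has 1 array.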

Other observations

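Genes for the synthesis of chondroitin and heparan sulfate were also listed. These glycosaminoglycans share UDP-glucuronic acid with hyaluronan but are built on core proteins in the Golgi. After TGF-b1, 0.999% of all genes kept were at least 2-fold higher in Snail1-KO and 0.714% in Snail1-WT cells. Of 32 measured genes of this list, 0 were so in Snail1-KO and 2 in Snail1-WT cells. Whether the genotypes differ in this was not tested. Chst11, a chondroitin 4-O-sulfotransferase gene, measured 7.44 in treated and 6.66 in untreated Snail1-KO cells, and 7.85 in treated and 6.31 in untreated Snail1-WT cells. Its response was 0.78 in Snail1-KO and 1.53 in Snail1-WT cells. Ust, encoding a uronyl 2-O-sulfotransferase, had responses of 0.53 and 1.07. The median response of the list was 0.10 in Snail1-KO and 0.07 in Snail1-WT cells.

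The Ext, Extl, Chsy and Chpf genes were chosen after their values were seen. Ext1 had responses of 0.62 in Snail1-KO and 0.76 in Snail1-WT cells, Extl3 0.85 and 0.72, and Chsy1 0.57 and 0.52. Others of these genes did not share that direction or size. Extl2 had -0.56 and -0.35, Ext2 0.04 and -0.005, Chsy3 0.10 and 0.08, and Chpf 0.003 and 0.08. Extl1 did not pass the filter. The heparan sulfotransferase genes that follow were also named after their values were seen. Hs6st1 had 0.77 and 0.68, while Hs6st2 had 0.03 and -0.09. In the other direction, Hs3st3b1 had -0.60 and -0.66, while Hs3st1 had 0.32 and 0.24. Ndst2 had 0.12 and -0.15. Ndst3 had -0.77 and -0.86, but both of its treated arrays were below 4.51, the lowest mean kept, so these sizes are uncertain.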
